A study of Mus musculus with 4 samples.

Results

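Cushion mesenchymal cells were the cells of the 4 heart libraries that carried *Postn*, *Twist1* and *Hapln1* transcripts together, with markers of other heart cells below set limits. They numbered 1855 of 30415 cells kept (6.099%). Control libraries 5 and 7 gave 401 and 658 of them, and libraries 6 and 8, from *Tie2-cko* hearts, gave 178 and 618. Hearts were dissected from mouse embryos at E10.5 and profiled cell by cell in droplets (10x Genomics), where each captured transcript carries a unique molecular identifier (UMI) and is counted once. Controls were Tie2 fl/fl embryos without Cre, and *Tie2-cko* embryos were Nfatc1Cre;Tie2 fl/fl, so that both genotypes carried floxed *Tek* (the gene symbol of *Tie2*) and only the latter carried the recombinase, which is driven from *Nfatc1*, a gene of the endocardium. There were 2 libraries of each genotype. By the study's methods the hearts came from 1 litter and somite-matched libraries shared a lane, but neither the labels nor the methods say which libraries match, and the comparison of 2 with 2 libraries can give no exact p below 0.333. No p-value measures spread beyond these libraries. Exact ones rest on the library values alone, and those of edgeR and DESeq2 also draw on a spread estimated across genes.

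A cell was kept with at least 1500 genes and at most 10% mitochondrial UMIs. It was counted as a cushion mesenchymal cell with at least 1 UMI each of *Postn* and *Twist1* and at least 3 *Hapln1* UMIs per 10000, provided that *Tnnt2* was below 15, *Hbb-y* below 500, the sum of *Pecam1*, *Cdh5* and *Ecscr* below 2 and the sum of *Upk3b* and *Upk1b* below 3 per 10000 and that *Epcam* was at 0. The values of these 11 genes chose the cells and are given only as a description. Levels below are UMIs of a gene per 10000 UMIs, summed over the cells of a library. The 3 genes required stood at 2.70, 3.03, 3.30 and 3.57 (*Postn*), at 8.97, 8.86, 9.35 and 8.83 (*Twist1*) and at 11.03, 11.8, 12.1 and 11.1 (*Hapln1*) in libraries 5, 6, 7 and 8, and values for the 4 libraries are in this order throughout. At the edge of the rule, 18, 8, 27 and 32 members had between 3 and 4 *Hapln1* UMIs per 10000, and 12, 12, 18 and 28 cells that met every other condition had between 2 and 3. The median *Hapln1* level of a member was 10.8, 11.3, 11.2 and 10.1, well above the limit, whereas 102, 29, 178 and 127 members passed with a single *Postn* UMI.

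The median member held 15434, 31204, 12371.5 and 14347 UMIs, so that library 6, which had the fewest members, was the deepest per cell. Summed over members, the libraries held 6877254, 5853669, 8739914 and 9618818 UMIs, and no member shared its barcode between libraries. The libraries also stood apart in ways that genotype does not follow. In members *Rpl10* was at 19.6 and 19.1 in libraries 5 and 6 and at 7.57 and 7.60 in libraries 7 and 8, while its near-identical copy *Rpl10-ps3* was at 0.603 and 0.678 and at 3.30 and 2.81. *Eno1* (5.47, 4.86, 1.65 and 1.57) and its copy *Eno1b* (0.199, 0.207, 1.41 and 1.37) were split in the same way. These pairs of libraries each hold 1 control and 1 *Tie2-cko* library. In library 5, 75 members held *Xist* UMIs without UMIs of Y-linked genes and 217 held Y-linked UMIs without *Xist*, whereas *Xist* was found in 0, 0 and 1 member of libraries 6, 7 and 8, so that library 5 alone held cells of both kinds.

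Cushion mesenchyme fills the swellings of the atrioventricular canal and outflow tract from which valves and septa form. Most of these cells arise from endocardial cells that lose their junctions, switch on factors such as TWIST1 and SNAI1 and move into a matrix rich in hyaluronan and versican, while part of the outflow tract mesenchyme comes from the neural crest. TIE2 is the receptor tyrosine kinase for angiopoietins on endothelial and endocardial cells. Mesenchyme derived from the endocardium inherits the allele of its parent cells, recombined where Cre had acted in them.

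The stretches before the start sites are shown for the 3 genes that the rule required and for *Snai1*, a marker outside it. They are the 250 bases before the start in RefSeq (GRCm38.p6, plus strand), with a TATAAA match in capitals for *Twist1* (chr12:33957421-33957670) and *Postn* (chr3:54360857-54361106), an E-box in capitals for *Snai1* (chr2:167537945-167538194) and no match to the motifs below for *Hapln1* (chr13:89540386-89540635, a start that lies 840 bases from that of GENCODE).
Twist1: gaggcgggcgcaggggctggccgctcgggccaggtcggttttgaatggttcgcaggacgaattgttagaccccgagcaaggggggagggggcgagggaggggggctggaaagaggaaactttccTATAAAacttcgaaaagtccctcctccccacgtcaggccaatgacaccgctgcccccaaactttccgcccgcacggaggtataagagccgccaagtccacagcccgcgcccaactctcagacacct
Postn: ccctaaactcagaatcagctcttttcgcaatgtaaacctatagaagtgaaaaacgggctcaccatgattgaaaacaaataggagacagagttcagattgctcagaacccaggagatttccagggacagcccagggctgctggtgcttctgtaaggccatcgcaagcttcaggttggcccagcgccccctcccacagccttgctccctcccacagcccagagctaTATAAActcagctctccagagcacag
Hapln1: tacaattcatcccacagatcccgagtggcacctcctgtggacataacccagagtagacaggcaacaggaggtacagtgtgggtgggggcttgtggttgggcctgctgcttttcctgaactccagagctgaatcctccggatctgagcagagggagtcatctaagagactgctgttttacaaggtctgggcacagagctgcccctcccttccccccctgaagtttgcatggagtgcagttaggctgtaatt
Snai1: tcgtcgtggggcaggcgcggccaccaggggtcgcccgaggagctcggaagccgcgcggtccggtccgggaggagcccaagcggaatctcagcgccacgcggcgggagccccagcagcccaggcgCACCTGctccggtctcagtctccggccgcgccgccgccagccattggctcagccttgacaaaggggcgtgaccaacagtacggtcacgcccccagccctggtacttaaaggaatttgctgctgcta
The E-box, with the letters CANNTG, is the site that TWIST and SNAI proteins bind in one form or another, and 66.2% of the 32817 RefSeq windows of this length held it on one of the strands, both of which were searched for each motif. The form CATCTG, which overlaps with it by definition, was in 14.5% of windows. The GATA factor motif AGATAA was in 9.99% of windows. The motif TATAAA was in 12.4% of windows. The E-box CACCTG of *Snai1* began 126 bases before the start, and the TATAAA matches of *Twist1* and *Postn* began 126 and 26 bases before it. A match is a description of letters, not of a bound site.

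The name was set beside markers that the rule did not use, as a description and not as an independent check. These markers were chosen with earlier results of these data known, and the rule itself left out endothelial, epicardial and myocardial cells. *Cthrc1* (chromosome 15, 39076932-39087121, GRCm38), which encodes a secreted collagen triple helix repeat protein, was at 2.88, 3.34, 4.03 and 4.13 UMIs per 10000 in members. The mean over libraries was 3.59 ± 0.59 (SD, n = 4), against 0.171 in endothelial cells, 0.383 in epicardial cells and 1.54 in mesenchymal cells that met every condition except the one on *Hapln1* (called *Hapln1*-low below). *Papss2*, which makes the sulfate donor for proteoglycans (chromosome 19, 32595790-32667187), was at 1.13, 1.18, 1.25 and 1.11 in members and at a mean of 0.263 in *Hapln1*-low and 0.0205 in endothelial cells. *Snai1* (chromosome 2, 167538195-167542814), a repressor of epithelial and endothelial junction genes, was at 0.522, 0.530, 0.667 and 0.526 in members. It was at 0.435 ± 0.088 in *Hapln1*-low cells, so that *Cthrc1* and *Papss2* set members apart from that class more than *Snai1* did. Each of the 3 genes was higher in members than in endothelial, epicardial and myocardial cells in every library.

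**Figure D1:**
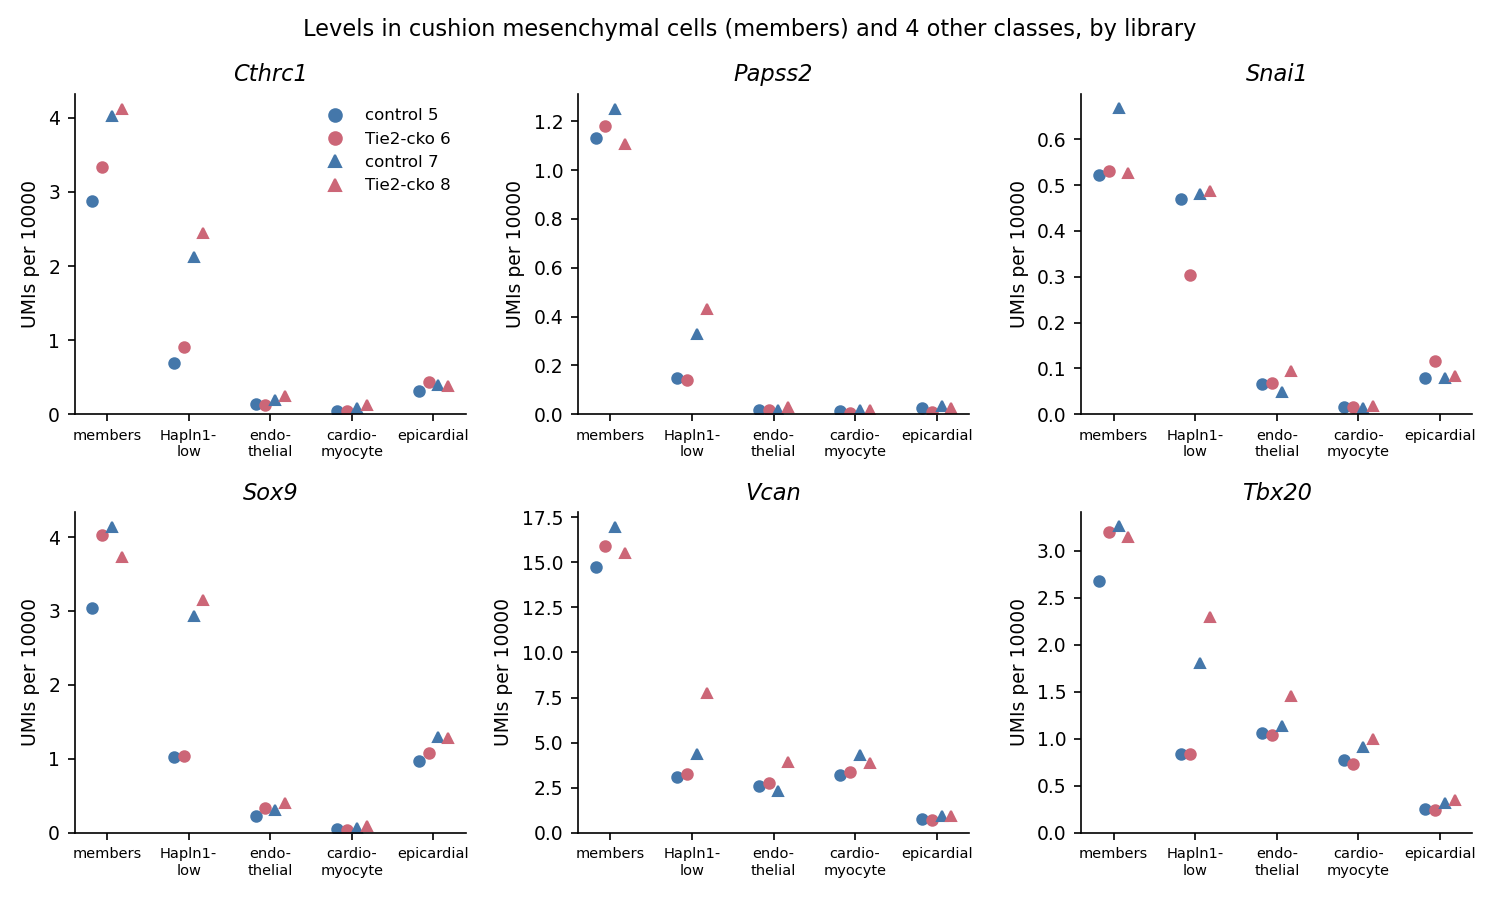
Levels in UMIs per 10000 (y axes) of 6 genes that the rule did not use, in members and 4 other cell classes (x axes), with 1 point for each library (blue control, red Tie2-cko, circles libraries 5 and 6, triangles libraries 7 and 8). Members lie above endothelial, cardiomyocyte and epicardial cells for all 6 genes, and *Vcan* sits between 14.7 and 17.0 in members but at 7.74 or less in the other classes drawn.

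Among 25 genes that led the members over all other kept cells, 22 lay outside the rule, with levels 5.32- to 41.0-fold those of the rest. They were chosen by their levels in these cells and are described, not tested. They were extracellular proteins or their makers (*Papss2*, *Cthrc1*, *Col9a3*, *Igfbp7*, *Tgfbi*, *Thbs1*, *Fbln2*, *Bgn*), transcriptional regulators (*Sox9*, *Msx1*, *Mecom*, *Lmo4*), cytoskeletal proteins (*Pdlim3*, *Tagln2*, *Tubb3*) and others such as *Rtn1*, *Ncam1*, *Igf1*, *Car3*, *Lgals1*, *Ppp1r14a* and *Itga4*. *Papss2* had the highest ratio of means (41.0), followed by *Rtn1* (29.3), a protein of the endoplasmic reticulum also known from neurons, and *Col9a3* (27.3), a collagen of cartilage. Of the 22 genes, 21 had a higher mean level in members than in any of the 5 other classes.

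The matrix of the cushion was prominent. *Vcan* (chromosome 13, 89655312-89742509), the versican core protein, was at 14.7, 15.9, 17.0 and 15.5 in members, with means of 4.62 in *Hapln1*-low cells, 2.89 in endothelial cells, 3.70 in cardiomyocytes and 0.84 in epicardial cells. *Has2*, the enzyme that makes hyaluronan, was at 0.935, 0.958, 0.992 and 1.12, about the same in the 4 libraries. *Sparc*, a collagen-binding matrix protein, was at 16.2, 16.1, 16.7 and 15.2, and epicardial cells had a mean of 19.0. *Fn1* (5.41, 4.94, 4.54 and 4.58) was lower than in endothelial cells (mean 10.3), and *Col1a1* (0.646, 0.815, 0.771 and 0.763) was lower than in *Hapln1*-low cells (mean 2.13).

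Transcription factors of valve development followed. *Sox9*, needed for cushion growth and later cartilage, was at 3.04, 4.03, 4.13 and 3.72, and *Sox5* at 0.820, 0.876, 0.812 and 0.717. Yet *Acan*, the aggrecan gene, was at 0.001 or less, and *Tnmd* and *Nkx3-2* were at 0 in all members, while the cartilage list as a whole summed to 4.80, 5.83, 5.83 and 5.34, with *Sox9* its most abundant gene. Genes of neural crest and pharyngeal position summed to 0.316, 0.430, 0.178 and 0.199 over 21 genes, against a mean of 2.68 in *Hapln1*-low cells, with *Isl1* the highest of them in members (mean 0.0722). Members also carried receptors: *Pdgfra* was at 0.963, 1.05, 0.983 and 0.989, and *Erbb3*, a neuregulin receptor with a known part in cushion mesenchyme, at 0.413, 0.526, 0.484 and 0.475.

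The abundance of the cells did not separate the genotypes. Their share of kept cells was 4.45% and 8.26% in the controls, against 3.98% and 6.90% in *Tie2-cko* hearts (libraries 6 and 8). The groups overlapped, and the means were 6.35% ± 2.70 (SD, n = 2) and 5.44% ± 2.06 (SD, n = 2), a difference of -0.91 percentage points (exact permutation test, two-sided p = 0.667). Taken of heart cell classes alone, which leaves out blood and unassigned cells, the shares were 8.35%, 8.30%, 11.5% and 9.08% (p = 0.667, exact permutation test). Leaving out 1 library at a time gave differences from -2.82 to 0.99 points, positive without library 6 and without library 7. Within the library pairs the *Tie2-cko* share was the lower in both (3.98% against 4.45%, and 6.90% against 8.26%). The paired difference in share was not tested.

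**Figure D2:**
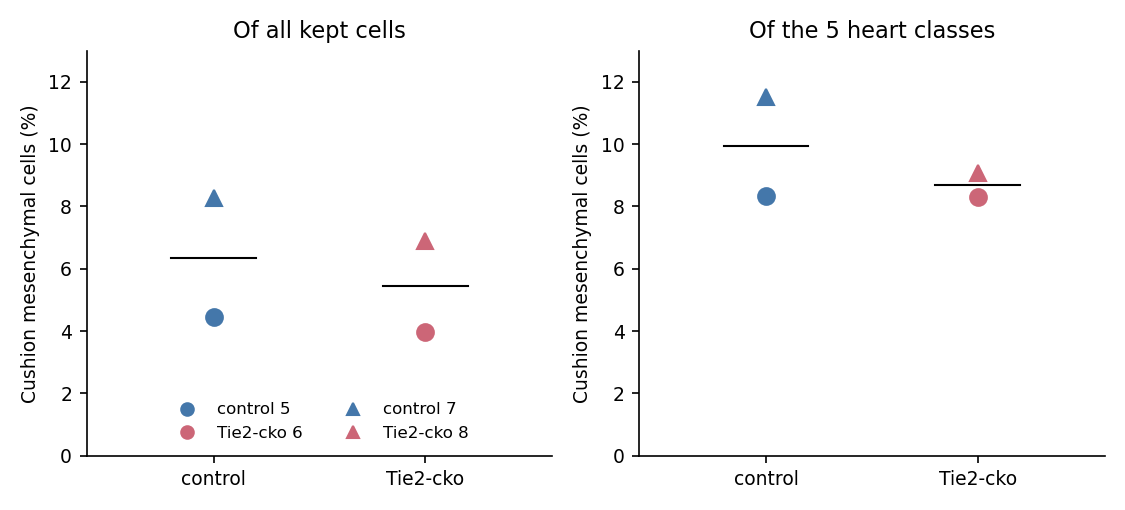
Share of cushion mesenchymal cells in percent (y axes) by genotype (x axes), of all kept cells and of heart cell classes, with 1 point for each library. Control points at 4.45% and 8.26% enclose the Tie2-cko point at 6.90% among all kept cells.

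Proliferation genes were at like levels. The summed level of 38 S phase genes was 29.3 and 28.5 in controls and 30.8 and 29.3 in *Tie2-cko* (exact permutation p = 0.667). Within the library pairs this sum was the higher in *Tie2-cko* in both. With the other cell filters and *Hapln1* limits tried, its exact permutation p was 0.333, the smallest that the libraries allow. The sum of 50 G2 and M phase genes was 68.3 and 80.2 against 76.5 and 73.6 (exact permutation p = 1), and the pairs differed in direction. *Mki67*, a marker of cycling cells, had a UMI in 31.9%, 35.3%, 33.7% and 31.4% of members once every cell had been thinned to 5500 UMIs, and in 49.4%, 59.0%, 44.7% and 46.4% before thinning. In cardiomyocytes the thinned shares were 29.1%, 29.9%, 22.9% and 22.9%. Of 11 cell cycle regulators 10 had a log2 fold change below 0 (median -0.05) and none passed the test. *Cdkn1c*, a cyclin-dependent kinase inhibitor, was at 11.5 and 9.45 in controls and at 13.2 and 8.19 in *Tie2-cko*, which enclosed them.

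Between genotypes, 11915 genes were tested in members with edgeR's quasi-likelihood test on summed counts, and none passed an adjusted p of 0.05 (0%). An unadjusted p under 0.05 was obtained for 112 genes (0.94%), a smaller share than that threshold gives where no gene differs. DESeq2 called 4 (*Hbb-bt*, *Hba-a2*, *Tek* and *Hbb-bs*, all lower in *Tie2-cko*), and edgeR called 58 once a term for the library pairs 5 with 6 and 7 with 8 was added. The labels do not state these pairs, and with 4 libraries that fit leaves little spread of a gene's own. Its p-values therefore rest largely on spread shared across genes, here and wherever the term is used below. Of the 58, 2 were genes of the rule, and the other 56 (18 higher, 38 lower) included *Tek*, *Inhba*, *Stmn3*, 8 red blood cell genes and 9 cardiomyocyte genes, which are given with this term where they are described. Among the 18 higher were genes of plasma proteins made by liver and yolk sac, which are not markers of mesenchyme and were picked out after their values were seen, such as *Alb* (3.54 on the log2 scale), *Apoa2* (2.87) and *Afp* (2.35), and the myeloid gene *Prtn3* (2.30). *Afp* was at 0.182, 0.852, 0.00229 and 0.0728 in members and at 0.399, 0.427, 0.000827 and 0.0335 in cardiomyocytes. It was thus higher in libraries 5 and 6 than in the others in both classes, and its part in other results was not tested. As a background for the lists below, both *Tie2-cko* libraries lay above both controls for 15.4% of genes and below both for 8.07%. After TMM scaling these shares were 11.5% and 11.4%. On simulated counts of these libraries, edgeR found 124 of 200 genes changed by 1 on the log2 scale (62%) with 4 false calls, so that changes of that size could be missed. The simulated spread depended on level alone and held no shift between the library pairs, so that more could be missed in the real counts.

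*Tek* (chromosome 4, 94739289-94874976), the gene deleted, was at 0.134 and 0.238 UMIs per 10000 in control members and at 0.0683 and 0.0343 in *Tie2-cko* members, from 92 and 208 against 40 and 33 UMIs. Both *Tie2-cko* libraries were below both controls. The log2 fold change was -1.97 (SE 0.38), which edgeR did not call (unadjusted p = 0.00142, adjusted p = 1.00) and DESeq2 did (adjusted p = 0.00935). With the term for library pairs it was -2.01 and edgeR called it (adjusted p = 3.1e-08, with the limit of that fit given above). Adjusted p-values over the 14 alternatives ranged from 1.0e-13 to 1.00. Which exons the floxed allele loses is not given in the sources used here, and UMIs of intact and of shortened transcripts cannot be told apart.

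The level of *Tek* in members was far below that in endothelial cells, where it was 0.847 and 1.24 in controls and 0.383 and 0.303 in *Tie2-cko*. Cardiomyocytes, which should lack it, had 0.0117 and 0.0129 in controls and 0.00330 and 0.00360 in *Tie2-cko*. After thinning to 5500 UMIs, 5.03% and 11.4% of control members and 2.31% and 1.30% of *Tie2-cko* members held a *Tek* UMI (15.7% and 25.5% against 10.1% and 4.85% before thinning). In cardiomyocytes the thinned shares were 0.542% and 0.704% in controls and 0.301% and 0.173% in *Tie2-cko*. Each member share was above this background, with overlapping 95% exact binomial intervals in library 6 (0.633% to 5.81% in members, 0.0819% to 0.768% in cardiomyocytes). Before thinning, the median cardiomyocyte held 28794.5, 50371.5, 21757 and 24226 UMIs in libraries 5, 6, 7 and 8. *Tie1*, the related receptor, was at 0.0465, 0.0581, 0.0526 and 0.0405 in members, and *Nfatc1*, from which Cre is driven, at 0.169, 0.183, 0.213 and 0.215, with overlapping genotypes for both.

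Apart from *Tek*, the genes with the smallest unadjusted p included *Hbb-bt*, *Hbb-bh1*, *Hba-a2*, *Hba-x* and *Hbb-bs*, which are globin genes of red blood cells, and the gene model *Gm21887*, each with lower levels in *Tie2-cko*, and *Stmn3* and *Inhba*, with higher levels. None passed the adjusted threshold in edgeR over the 4 libraries, and all of these were called with the term for library pairs. *Hba-x*, an embryonic alpha-like globin, was at 16.6 and 7.16 in control members and at 3.07 and 2.44 in *Tie2-cko* members, a log2 fold change of -2.15. This value was -1.42 without control library 5 and -2.63 without control library 7. The libraries had the same order in endothelial cells (14.5 and 6.15 against 3.09 and 2.44), in cardiomyocytes (14.2 and 4.78 against 4.22 and 2.33) and in epicardial cells (14.5 and 5.05 against 3.15 and 1.90). Of 9 red blood cell genes 8 were tested, and all 8 were lower with an unadjusted p under 0.05 (median log2 fold change -2.11 against -0.0007 over all genes tested). With the term for library pairs edgeR called all 8. The 8 genes, which leave out *Hbb-y* of the rule, summed to 34.4 and 14.7 in controls and 6.59 and 5.37 in *Tie2-cko*, with *Hba-x* the most abundant and none at 0. The share of this signal that came from free RNA was not tested.

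**Figure D3:**
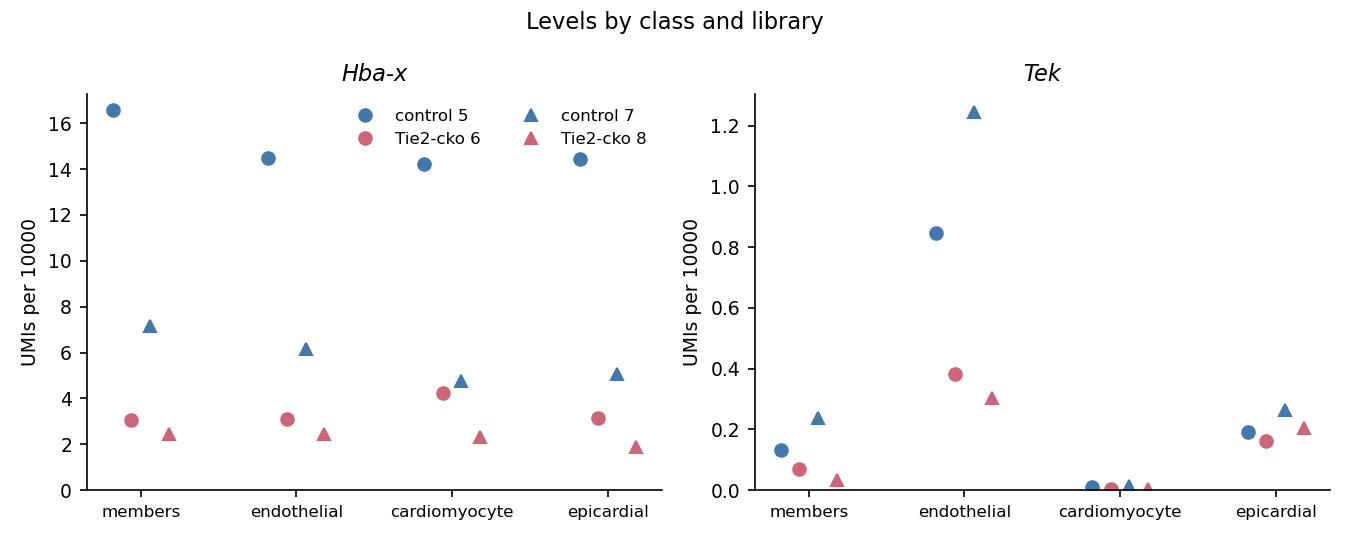
Levels in UMIs per 10000 (y axes) of Hba-x and Tek in members and in endothelial, cardiomyocyte and epicardial cells (x axes), with 1 point for each library (blue control, red Tie2-cko). *Hba-x* is highest in library 5 in all 4 classes (14.2 to 16.6) and ranges from 4.78 to 7.16 over the classes in library 7, whereas *Tek* is at 0.303 to 1.24 in endothelial cells and at 0.238 or less in members.

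Muscle genes were lowest in library 6. All 11 cardiomyocyte genes tested had log2 fold changes below 0 (median -0.52), none passed the adjusted threshold, although edgeR called 9 of them, all lower, with the term for library pairs, and the 11 genes of the list outside the rule summed to 27.6 and 35.4 in controls and to 14.8 and 32.0 in *Tie2-cko*. *Myl7*, an atrial myosin light chain, was at 5.43 and 6.74 in controls and at 1.63 and 7.04 in *Tie2-cko*, so that library 6 alone was low. With the term for library pairs *Myl7* was called lower (log2 fold change -0.83, edgeR adjusted p = 0.00942), although the pairs differed in direction. *Tnni1* was the most abundant of the list in members (mean 7.97) and none of the list was at 0. The part of this signal in other results was not tested.

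*Inhba* (chromosome 13, 16011851-16031621), which encodes the activin A subunit, was at 0.333 and 0.375 in controls and at 0.567 and 0.510 in *Tie2-cko* (log2 fold change 0.56, edgeR unadjusted p = 0.00365, adjusted p = 1.00). With the term for library pairs edgeR called it (adjusted p = 0.00185). *Stmn3*, a stathmin that acts on microtubules, was at 0.0305 and 0.0481 against 0.101 and 0.124 (log2 fold change 1.47), and was called with that term (edgeR adjusted p = 5.7e-05) and with no filter on low counts. Its level was higher in the *Stmn4*-led members described below, at 0.179, 0.384, 0.322 and 0.612, against 0.00344, 0.00230, 0.00787 and 0.0152 in the other members. Both *Tie2-cko* libraries were above both controls for each gene.

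In the lists of cushion pathways no gene passed the adjusted threshold. Of 29 transcription factors of the transition and the cushion, 6 had both *Tie2-cko* libraries above both controls and 1 below, and the median log2 fold change was 0.04. *Foxc1* had the smallest unadjusted p of these, at 0.0669 and 0.0641 in controls and 0.0888 and 0.101 in *Tie2-cko* (log2 fold change 0.51, edgeR adjusted p = 1.00). Of 41 matrix protein genes, 8 were above and 3 below, with a median of 0.02, and *Tgfbi*, a secreted protein induced by TGF-beta, was at 1.999 and 2.005 against 2.76 and 2.28. *Vcan* and *Has2* had log2 fold changes of -0.05 and 0.10. Of 14 hyaluronan and sulfation genes 2 were above and 1 below (median -0.02), and of 15 proteases and inhibitors of the matrix none was above and 4 were below (median -0.06), namely *Adamts9*, *Adamts10*, *Adamts19* and *Pcolce*. *Timp3*, an inhibitor of ADAMTS and MMP enzymes, was at 0.855 and 1.09 in controls and at 0.851 and 0.943 in *Tie2-cko*, and *Adamts1*, a versican-cleaving protease, at 0.284 and 0.367 and at 0.248 and 0.391. The ECM genes that the study names as higher or lower in endocardial cells of *Tie2-cko* hearts were chosen on these samples, and in members 1 of the 12 higher genes was above, 1 was below, and 9 had a log2 fold change below 0 (median -0.05). Of the 3 lower genes tested here, 1 was above and none below (median -0.09).

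Signalling lists gave no call either without the term for library pairs, and *Inhba* with it. Of 20 TGF-beta and BMP genes, 2 were above and 1 below (median 0.07), with *Inhba* the one with an unadjusted p under 0.05. Of 15 receptor kinase ligands and receptors, 4 were above and none below (median 0.07), and of 9 Notch genes 3 were above and 1 below (median 0.06). *Hes1*, a Notch target, was at 0.660 and 0.657 in controls and at 0.584 and 0.571 in *Tie2-cko*. Of 18 Wnt genes, 3 were above and 4 below (median 0.10). The 4 were *Tcf7*, *Axin2*, *Dkk2* and *Nkd1*, of which *Axin2*, *Tcf7* and *Nkd1* are known targets or effectors of beta-catenin signalling and *Dkk2* is a secreted Wnt modulator. The 3 above were *Wnt5a*, a ligand, *Fzd2*, a receptor, and *Frzb*, a secreted inhibitor. *Axin2* was at 0.111 and 0.117 in controls and at 0.0820 and 0.0904 in *Tie2-cko* (log2 fold change -0.43, edgeR unadjusted p = 0.0643), and *Tcf7* at 0.105 and 0.103 against 0.0803 and 0.0728 (log2 fold change -0.48, edgeR unadjusted p = 0.0407). *Frzb* was at 0.0523 and 0.0709 in controls and at 0.0871 and 0.0904 in *Tie2-cko* (log2 fold change 0.48, edgeR unadjusted p = 0.0836). Of 15 guidance and chemokine genes 2 were above and none below (median 0.16).

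The remaining lists described other states and cells. Of 9 immediate early genes, which respond to handling as well as to growth signals, *Egr1* alone was separated, at 0.369 and 0.367 in controls and 0.314 and 0.221 in *Tie2-cko* (log2 fold change -0.52, called by edgeR only with the term for library pairs). None of 6 crest and pharyngeal genes tested and none of the 3 cushion markers outside the rule was separated, and of 5 cartilage genes none was above and 1 was below. Of 7 smooth muscle genes 1 was above and 1 below (median -0.12), of 38 S phase genes 8 were above and 2 below, and of 50 G2 and M phase genes 1 was above and 3 below. Of 15 endothelial genes 2 were above and 2 below, *Tek* among the latter, and the 19 genes of that list outside the rule summed to 2.49, 2.48, 2.21 and 2.07 in members. *Flt1*, a VEGF receptor, was at 0.129, 0.125, 0.125 and 0.117 in members. Epicardial genes outside the rule summed to 0.541, 0.466, 0.651 and 0.820 (1 of 5 above and none below), epithelial genes to 0.801, 0.859, 0.391 and 0.458 (none of 2 tested was separated), neuronal genes to 1.24, 1.58, 1.47 and 1.31 (mostly *Tubb3*, none of 3 separated), and macrophage and platelet genes to 0.243, 0.0974, 0.0240 and 0.0198 (1 of 2 below).

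Whether the genotype difference in members was unlike that in *Hapln1*-low mesenchymal cells was tested by an interaction of class and genotype, with libraries as blocks. None of 11993 genes passed an adjusted p of 0.05 in edgeR (0%), and 188 had an unadjusted p under 0.05. That is fewer than the threshold gives where no gene differs, and the lack of calls does not show that both classes responded alike. For *Tek* the term was -1.31 on the log2 scale (SE 0.46, edgeR unadjusted p = 0.0246, adjusted p = 1). In *Hapln1*-low cells *Tek* was at 0.0460 and 0.0915 in controls and at 0.0479 and 0.0458 in *Tie2-cko*.

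Members fell into 7 sub-clusters, most of which followed the pairs of libraries or the cell cycle. Sub-cluster 1, led by *Afp*, *Eno1* and globins, held 53.4% and 41.6% of the members of libraries 5 and 6 and 0.152% and 0.809% of those of libraries 7 and 8. Sub-cluster 5, led by *Rps27rt* and *Eno1b*, held 0.499%, 3.93%, 51.2% and 48.1%. Sub-clusters 3 and 6, both led by histone genes, were split in the same way (22.7%, 17.98%, 0% and 0.162%, and 0.499%, 1.69%, 25.2% and 24.8%). Sub-cluster 4, with G2 and M phase genes, was present in all libraries (7.48%, 10.7%, 11.2% and 9.06%), and sub-cluster 7, with *Myh6* and *Ttn*, held 17 cells of the highest median depth (24507 UMIs), so that some cells with muscle transcripts were among the members.

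Sub-cluster 2 was present in every library and was led by *Stmn4*, a stathmin known mainly from neurons (chromosome 14, 66344296-66361680). It held 274 members (60, 43, 72 and 99). Its genes are given as a description, because they formed it. *Stmn4* was at 1.93, 1.94, 2.21 and 2.17 inside and at 0.0481, 0.0345, 0.131 and 0.116 in the other members. The 10 leading genes, *Stmn4*, *Pla2g7*, *Rgs5*, *Dkk1*, *Inhba*, *L1cam*, *Meox1*, *Hand1*, *Col2a1* and *Krt8*, were above the other members in each of the 4 libraries.

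The *Stmn4*-led members and the others both held *Postn*, *Twist1* and *Hapln1*, which the rule required of every member, and differed in their levels. Of the cushion markers outside the rule, *Cthrc1* was at 0.778-fold, *Papss2* at 1.19-fold and *Snai1* at 1.08-fold the level in the other members. *Inhba* was at 1.06, 1.53, 1.46 and 1.68 inside and at 0.199, 0.232, 0.216 and 0.252 outside, and *Tagln*, a contractile protein of smooth muscle, at 11.2, 11.5, 13.5 and 13.6 against 2.81, 3.12, 4.38 and 4.95. *Postn* was at 6.09, 5.74, 6.38 and 6.34 against 2.08, 2.09, 2.85 and 2.96, and *Prrx2*, a mesenchymal homeobox gene, at 5.33, 5.27, 3.47 and 3.995 against 1.57, 1.501, 1.78 and 1.45. Lower inside were *Msx1*, a homeobox gene of the atrioventricular cushions, at 0.217, 0.0994, 0.0984 and 0.103 against 1.32, 1.44, 1.70 and 1.48, together with *Lef1* (0.131-fold), *Tbx2* (0.152-fold), *Igf1* (0.420-fold), *Twist1* (0.574-fold) and *Hapln1* (0.608-fold). *Vcan* (0.950-fold), *Pdgfra* (1.03-fold), *Nfatc1* (0.969-fold) and *Tbx20* (1.15-fold) were at like levels in both. *Stmn4* was also present in *Hapln1*-low mesenchyme, at 0.690, 0.532, 1.495 and 2.05.

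**Figure D4:**
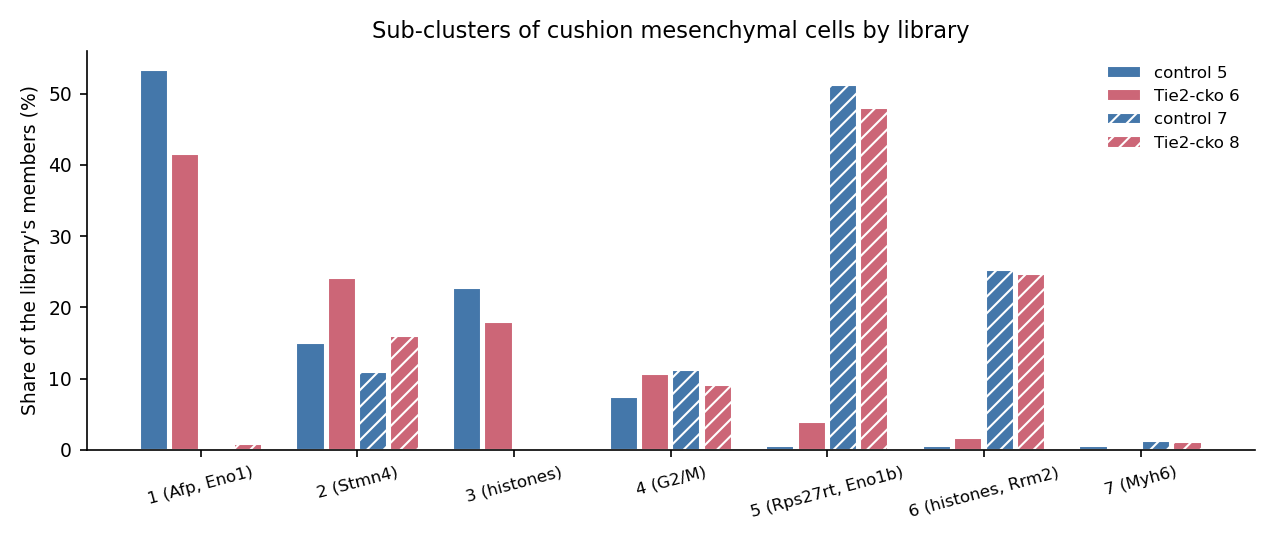
Share of each library's members in percent (y axis) in the 7 sub-clusters (x axis), with 1 bar for each library (blue control, red Tie2-cko, hatched libraries 7 and 8). Bars of sub-clusters 1, 3, 5 and 6 follow the pairs of libraries, while the Stmn4-led sub-cluster has 10.9% to 24.2% in all 4.

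The *Stmn4*-led cells made up 14.96% and 10.9% of control members and 24.2% and 16.0% of *Tie2-cko* members. Both *Tie2-cko* libraries were above both controls, with means of 20.1% ± 5.75 (SD, n = 2) and 12.95% ± 2.84 (SD, n = 2), but the exact permutation p was 0.333, the smallest that 4 libraries allow, and libraries 5 and 8 differed by 1 point. The difference was 7.14 points, and between 3.07 (without library 6) and 11.2 (without library 8) with 1 library left out. It was 7.23 points when the 112 genes with a low unadjusted p, *Tek* and *Inhba* among them, were left out of the clustering, which placed 269 of the 274 cells (98.2%) in the same sub-cluster. With these cells left out, edgeR called none of 11677 genes between genotypes. The log2 fold change of *Inhba* was then 0.19, against 0.56 with them, that of *Stmn4* was -0.21 against 0.42, and that of *Tek* was -3.05 against -1.97.

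Among the other members, each *Tie2-cko* library had less *Tek* than each control, while among the *Stmn4*-led ones each had more, a pattern that was noticed after the values had been seen. In the other members it was at 0.136 (95% Poisson interval 0.108 to 0.169, 79 UMIs) and 0.262 (0.227 to 0.301, 200 UMIs) in control libraries 5 and 7. It was at 0.0414 (0.0246 to 0.0655, 18 UMIs) and 0.0140 (0.00698 to 0.0250, 11 UMIs) in *Tie2-cko* libraries 6 and 8. In the *Stmn4*-led members it was at 0.122 (0.0652 to 0.209, 13 UMIs) and 0.0716 (0.0309 to 0.141, 8 UMIs) in controls and at 0.146 (0.0913 to 0.221, 22 UMIs) and 0.126 (0.0789 to 0.191, 22 UMIs) in *Tie2-cko*. The intervals of the genotypes were thus apart in the other members and overlapped in the *Stmn4*-led ones; they cover counting error only.

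The difference between these 2 genotype effects was tested by such an interaction in edgeR. It was 3.48 on the log2 scale (SE 0.51, edgeR adjusted p = 0.00103), and *Tek* was the one gene called of 10916 (0.00916%), a count that was 1 to 21 with 1 library left out and 12 with no filter on low counts. Without 1 library at a time it was between 2.57 and 4.31, and it did not pass without control library 7 (2.57, adjusted p = 0.0836). The UMIs of the *Stmn4*-led members came from 9, 10, 8 and 19 cells. P-values of this *Tek* term also draw on spread shared across genes, not on the libraries alone. *Nfatc1* was at 0.245, 0.132, 0.206 and 0.183 in the *Stmn4*-led members and at 0.155, 0.200, 0.214 and 0.222 in the others, so that both *Tie2-cko* libraries were below both controls in the former and the genotypes overlapped in the latter. This difference in *Nfatc1* was not called.

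**Figure D5:**
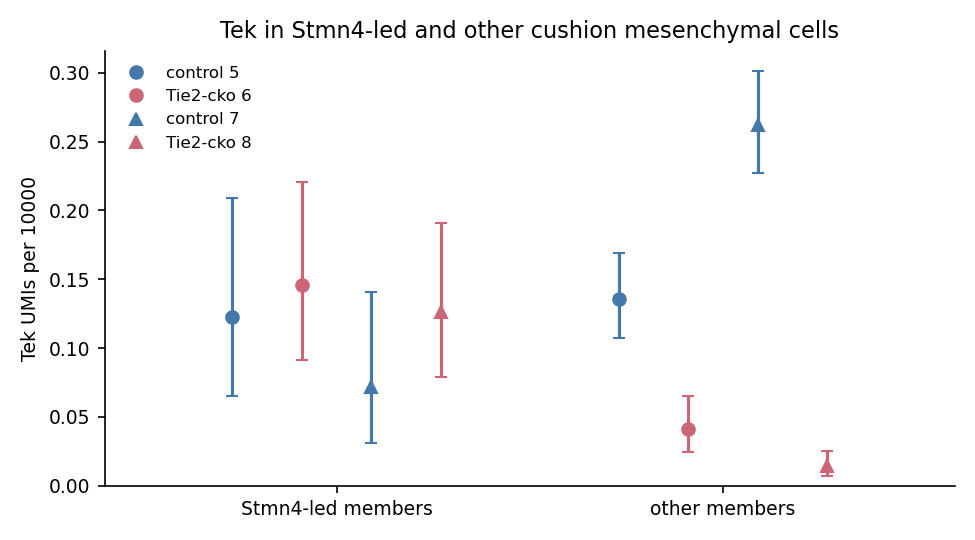
*Tek* level in UMIs per 10000 (y axis) in Stmn4-led and other members (x axis), with 1 point for each library and bars giving 95% Poisson intervals of the UMI count. In other members Tie2-cko points are at 0.0414 and 0.0140, below the control points at 0.136 and 0.262, while the intervals of Stmn4-led members overlap.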

How the data were processed

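Single-cell suspensions of 2 control and 2 *Tie2-cko* E10.5 heart samples were sequenced on the 10x Genomics platform. The authors deposited UMI counts per gene and barcode for 32285 genes, without normalization. The header of the files names Cell Ranger 6.1.2 (the methods name another version) and the submitters' processing notes name mm10. No correction for free RNA or doublets is stated. Cells were selected by the rule given above. The members and the gene lists were chosen with earlier results of these data known. Counts were summed over the members of a library and tested with edgeR 4.0.16 (TMM, filterByExpr, quasi-likelihood test, Benjamini-Hochberg adjustment over all genes tested, threshold 0.05), with all 4 libraries and no covariate. DESeq2 1.42.0 (R 4.3.3) served as an alternative. Cell groups were compared by an interaction of group and genotype, with libraries as blocks. The standard error of a log2 fold change was its size over the root of the F statistic. Shares and list sums were compared by two-sided exact permutation over the 4 libraries.

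Members were clustered with scanpy 1.11.5 (Leiden, resolution 0.5). Shares of cells with a UMI were taken after thinning to 5500 UMIs, and their intervals and those of counts cover counting error only. Other classes were set by the markers of the rule, and cells with endothelial, epicardial or myocardial markers above the limits of the rule were kept apart from members, while doublets below these limits could remain; the highest Scrublet scores were removed in an alternative. Of the 32285 identifiers, 32158 matched GENCODE M21 (GRCm38), which gave coordinates. Genes named are those of 26 lists (cushion markers, transcription factors, matrix proteins, hyaluronan and sulfation, proteases, signalling, cell cycle, immediate early genes and markers of other cells), the 25 genes leading the members, the genes with the 10 smallest p-values outside the rule and the 10 genes leading each sub-cluster described; others were chosen after their values were seen. A gene among those with the smallest p-values is not reported here. Alternatives were other size factors, DESeq2, no filter on low counts, a term for the library pairs, 5% mitochondrial UMIs, *Hapln1* limits of 1 and 5, thinning to 10000 UMIs, Scrublet, and leaving out each library. The methods were tested on simulated data, drawn with a spread that depended on level alone and without a shift between the library pairs. For the term between member groups, 162 of 200 genes changed by 2 on the log2 scale were found (81%) with 7 false calls among 10736 genes, and for that against *Hapln1*-low cells 150 (75%) with 8 among 11818. Genes of the selection rule stayed in the fits and their counts, but no test of a single one is reported. Further software was pandas 2.3.3, scipy 1.17.1 and numpy 2.4.6 under Python 3.11.15.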

Additional observations from a re-analysis of the deposited data

Results flagged for a closer look

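In a comparison made after the values had been seen, the genotype difference in *Tek* was set against itself in 2 kinds of cushion mesenchymal cells. On the log2 scale the effect in *Stmn4*-led members exceeded that in the other members by 3.48 (edgeR, class by genotype term, adjusted p = 0.00103), the difference between groups that drew attention. The call was lost without control library 7 (2.57, edgeR adjusted p = 0.0836). The *Stmn4*-led members of *Tie2-cko* libraries held 22 and 22 *Tek* UMIs, against 13 and 8 in controls, so that the value rests on few molecules. Its p-value also draws on spread shared across genes.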

How the results depend on the processing

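By replicate number, no paired analysis was possible because controls are numbered 5 and 7 but *Tie2-cko* libraries 6 and 8; the pairs 5 with 6 and 7 with 8, which the labels do not state, entered as a term in an alternative. The count of genes called by edgeR between genotypes, 0, became 4 with DESeq2, 44 with no filter on low counts and 58 with a term for libraries 5 and 6 against 7 and 8 (4, 43 and 56 outside the rule), and was 0 with the other size factors, the other cell filters and the *Hapln1* limits tried. Leaving out 1 library at a time gave 0 to 10 (10 without control 7, 6 without *Tie2-cko* 8). Against *Hapln1*-low cells the count, 0, became 12 with no filter and 0 to 16 without 1 library (16 without *Tie2-cko* 8). The *Tek* term between member groups was 2.57 to 4.31 without 1 library and lost its call without control 7 (2.57, adjusted p = 0.0836 by edgeR); with other size factors, no filter or another clustering, alternatives chosen after seeing the data, it was 3.47, 3.49 and 3.46 and kept its call. Of single genes, 8 values turned sign, none of them called in either fit: *Stmn4* -0.21 and *Flt1* 0.070 without the *Stmn4*-led members, *Flt1* 0.048 under the rule after thinning, and, over the libraries left out, *Cthrc1* (-0.15 to 0.34), *Vcan* (-0.15 to 0.056), *Timp3* (-0.32 to 0.037) and *Has2* (-0.092 to 0.22). Another 35 gene values passed the threshold under an alternative and 362 stayed on the same side. The causes were not tested. *Tek* values rest on 33 to 208 UMIs a library over all members and on 8 to 22 in the *Stmn4*-led ones, and changes smaller than 1 on the log2 scale were not simulated.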
